A study of Oryza sativa with 6 samples.

Results

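The short arms of rice chromosomes 4 and 10 carried 706 of the 29513 peaks (2.39%) in the deposited PIF4-GFP peak list. Peaks were taken by position alone: 343 ended before 8.2 Mb on chromosome 4 and 363 ended before 6.7 Mb on chromosome 10. They were set against the 3317 peaks that started beyond 11.2 Mb on chromosome 4 or beyond 9.7 Mb on chromosome 10, called here the rest of these chromosomes. The study used leaves of 3-week-old potted rice under fluctuating light and drought, with 3 libraries from a line overexpressing PIF4 fused to green fluorescent protein (PIF4-GFP) and 3 from a GFP mock. The promoter that drives PIF4-GFP was not given in the sources used here. The series is typed as chromatin immunoprecipitation sequencing, while its sample labels describe total RNA. All peak names begin with PIF4-GFP1, so the list may stem from 1 library, and mock peaks were not analysed here. The list holds promoter, transcription end, exon and intron peaks, all tied to a gene locus, and no intergenic class. There is thus 1 list with no replicate error and no score for any peak, and the depth behind it is unknown. The intervals below are 95% intervals for counting error only, which treat peaks as independent.

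PIF4 is a basic helix-loop-helix transcription factor that is destabilised by light-activated phytochrome and binds short DNA elements such as the G-box near the starts of its target genes. Heterochromatin is the condensed part of the genome, rich in transposable elements and poor in active genes. The short arms of rice chromosomes 4 and 10 are known from cytology for their large share of it. The files hold no chromatin mark and no centromere position, so the name of these arms rests on that background and on the limits of the rule. The last peaks inside the limits were 400 bp wide on both chromosomes, at 8170800 to 8171199 on chromosome 4 and 6698800 to 6699199 on chromosome 10. The next peaks outside began at 8201600 and 6701200, and were 1600 and 1000 bp wide.

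Listed peaks were sparse in both arms. The arms held 47.4 peaks per Mb and the rest of the same chromosomes 87.9 per Mb, a ratio of 0.539 (exact conditional interval 0.497 to 0.585). The chromosome 4 arm had 41.8 per Mb against 90.2 in its rest, a ratio of 0.464 (0.413 to 0.520), and the chromosome 10 arm had 54.2 per Mb against 83.7, a ratio of 0.647 (0.574 to 0.729). Peaks covered 8.57% of the arms (1277 kb, mean peak width 1809 bp) and 16.6% of the rest (6272 kb, mean peak width 1891 bp). Over 1 Mb bins, the 14 bins that lie wholly in the arms held 27 to 76 listed peaks, with a median of 47.5. The 351 full bins outside the arms on all 12 chromosomes had a median of 80, and 57 of them (16.2%) were at or below the arms' median.

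The part of the rest next to the far limits was nearly as sparse as the arms. In the 5 Mb beyond the far limits, up to 16.2 Mb on chromosome 4 and 14.7 Mb on chromosome 10, there were 52.5 listed peaks per Mb, and the ratio of the arms to this stretch was 0.903 (0.805 to 1.01), an interval that includes 1. Beyond those 5 Mb the density was 100.6 per Mb and the ratio 0.471 (0.433 to 0.512). This division of the rest was made after the bin values were seen. Between the arms and the far limits, where the 3 Mb left out by the rule lie, there were 31.7 peaks per Mb.

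**Figure D1:**
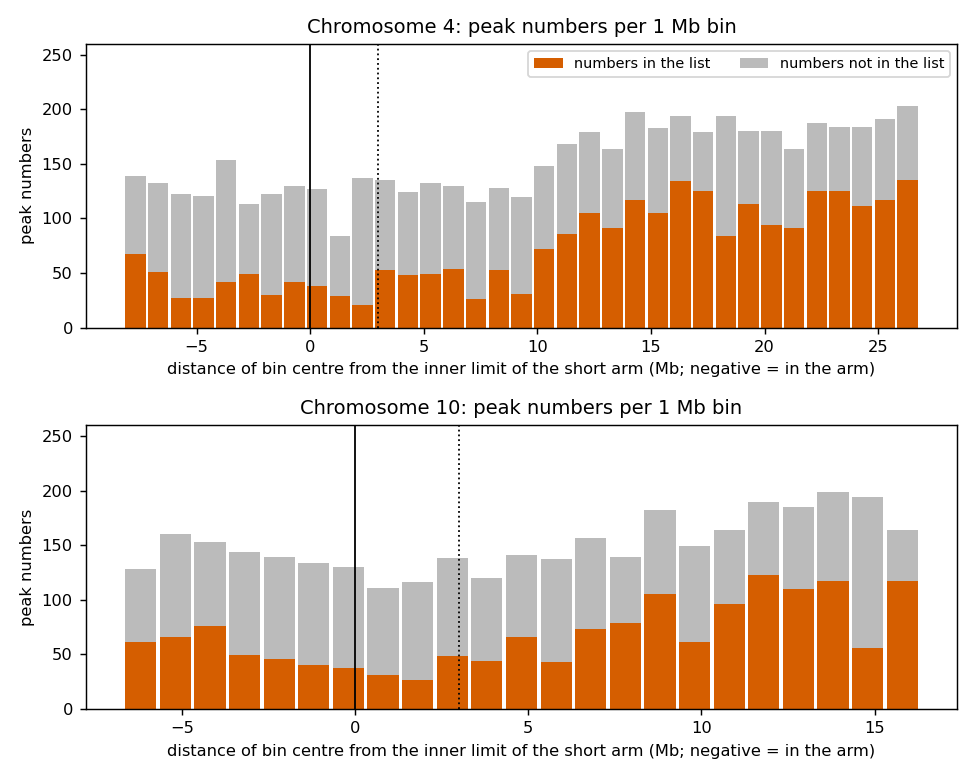
Peak numbers per 1 Mb bin along chromosome 4 (top) and chromosome 10 (bottom), split into numbers in the list (orange) and numbers not in it (grey), against the distance of the bin's centre from the inner limit of the short arm in Mb. The solid line marks the inner limit and the dotted line the far limit 3 Mb beyond. Numbers were counted from the first to the last listed peak of a bin, which leaves out missing numbers at bin edges. Orange columns stay between 27 and 76 in bins wholly in the arms, lie between 26 and 54 in the bins from 12 to 15 Mb of chromosome 4, and reach 135 near its end.

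Peak numbers were also less dense in the arms, but by less than the listed peaks. Each peak name ends in a number, and along each of the 12 chromosomes these numbers rose at every one of the 29501 steps between neighbouring peaks, so a number missing from the list lies between the positions of its listed neighbours. What the missing numbers stand for is not stated by the labels or the list. The arms spanned 2101 numbers, of which 33.6% (Wilson interval 31.6 to 35.7%) were listed, against 52.5% (51.2 to 53.7%) of 6321 numbers in the rest, a difference of -18.9 percentage points (Newcombe interval -21.2 to -16.5). On chromosome 4 the listed share was 30.3% in the arm and 53.5% in the rest, and on chromosome 10 it was 37.5% in the arm and 50.6% in the rest. Numbers missing from the list were denser in the arms: 93.6 per Mb in the arms and 79.6 per Mb in the rest, a ratio of 1.18 (1.10 to 1.25). That ratio was 1.23 (1.13 to 1.34) on chromosome 4 and 1.11 on chromosome 10, where the interval just reached 1 (0.999 to 1.22). Listed and missing numbers together came to 141 per Mb in the arms and 167 per Mb in the rest, a ratio of 0.842 (0.801 to 0.885). Against the 5 Mb next to the far limits, which held 134 numbers per Mb, this ratio was 1.05 (0.981 to 1.13). The listed share there was 39.1%, from which the arms differed by -5.52 points (-8.82 to -2.23). Missing numbers were denser in the arms than there by a ratio of 1.15 (1.05 to 1.25). Between the arms and the far limits, however, missing numbers were about as dense as in the arms, at 94.2 per Mb. The listed share of that stretch was 25.2%, below that of the arms. Bins of the other chromosomes whose listed counts lay in the range of the arm bins held 87.8 missing numbers per Mb. Their listed share was 38.4%. Numbers there were counted within each run of adjoining bins, which leaves out missing numbers at the edges of each run. The density of 87.8 is thus a lower bound and the share of 38.4% an upper bound. No interval was computed for the arms against either of these regions.

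**Figure D2:**
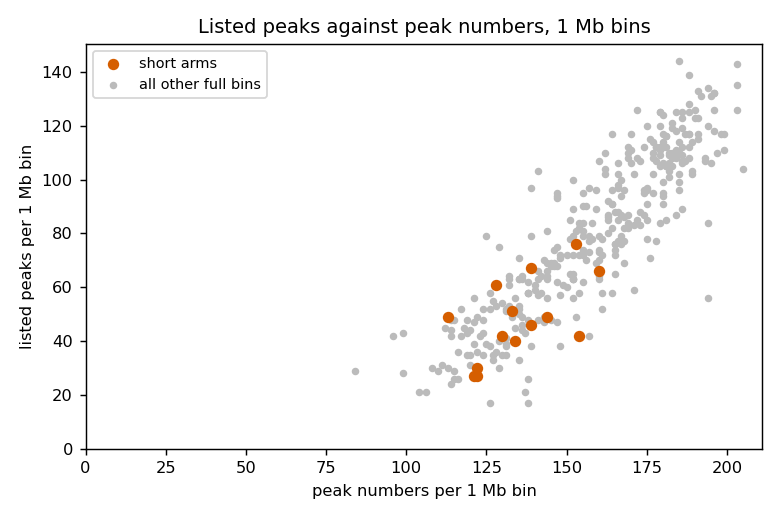
Listed peaks (vertical axis) against all peak numbers (horizontal axis) in 1 Mb bins, with the 14 bins wholly in the short arms in orange and the 351 full bins outside the arms in grey. The arm bins span 113 to 160 numbers (median 133.5, against 160 outside) and lie in the lower part of the same cloud of bins. Counts run from the first to the last listed peak of a bin and leave out missing numbers at its edges, so they are lower bounds.

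The loci of the list gave a second scale. It is tied to the density of listed peaks given above, so it is not a separate result. The identifiers (LOC_Os04g01480, for example) carry numbers in steps of 10 that follow the chromosome, with 28 exceptions in the 29501 steps of the whole list. In the annotation they come from, transposon-related gene models are numbered as well. Locus numbers were about as dense in the arms as in the rest, at 165 per Mb in the arms and 168 per Mb in the rest. A smaller share of those in the arms had a listed peak. In the arms 516 of 2452 locus numbers (21.0%, Wilson interval 19.5 to 22.7%) carried one, against 2547 of 6333 (40.2%, 39.0 to 41.4%) in the rest, a difference of -19.2 points (-21.2 to -17.1). The share was 19.5% in the chromosome 4 arm and 42.7% in its rest, and 22.9% in the chromosome 10 arm and 36.1% in its rest. With promoter peaks alone it was 19.2% in the arms and 37.4% in the rest. In the 5 Mb next to the far limits 23.8% of locus numbers had a peak, and the difference of the arms from that stretch was -2.75 points (-5.39 to -0.145). Between the arms and the far limits the share was 11.4% (9.74 to 13.3%), below that of the arms. Locus numbers were denser there, at 208 per Mb. Among all listed loci in the arms, 12.4% had a number that is no multiple of 10, against 6.98% in the rest and 9.13% in the 5 Mb next to the far limits. The share was 8.65% in the chromosome 4 arm and 6.44% in its rest, and 16.0% in the chromosome 10 arm and 8.01% in its rest. In the 5 Mb next to the far limits it was 10.2% on chromosome 4, above that of the arm, and 8.30% on chromosome 10. No interval was computed for these shares. Loci whose number is no multiple of 10 are not in the shares given before them.

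**Figure D3:**
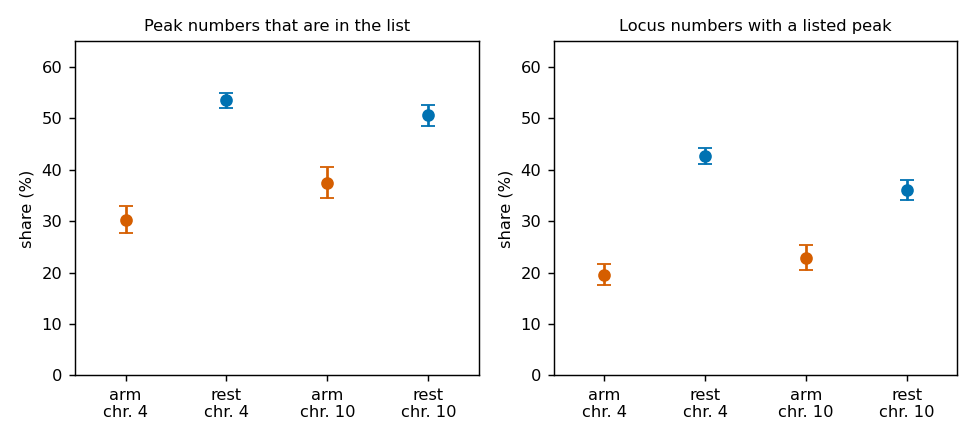
Share of peak numbers that are in the list (left, %) and share of locus numbers with a listed peak (right, %), for the short arm (orange) and the rest (blue) of chromosomes 4 and 10; bars are Wilson 95% intervals. Both arms lie below their rest in both measures, and the chromosome 4 arm is lower than the chromosome 10 arm.

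Within the arms the peaks were unevenly spread. Numbers per bin were counted from its first to its last listed peak, so missing numbers at bin edges are left out. On chromosome 4 the first 1 Mb bin held 67 listed peaks out of 139 numbers and the second 51 of 133, while the bins from 2 and from 3 Mb held 27 each, of 122 and 121 numbers. The bin from 5 Mb then had 49 of 113, a listed share of 43.4%, and the bin from 6 Mb 30 of 122. On chromosome 10 the densest bin was the third, from 2 Mb, with 76 of 153, and the counts in the next 3 bins were 49, 46 and 40. The share of numbers listed ran from 22.1% to 48.2% over the bins of the chromosome 4 arm and from 29.9% to 49.7% over those of the chromosome 10 arm. The arm bins with the most listed peaks lay in the first 3 Mb on both chromosomes, while the sparsest were those from 2 and 3 Mb (chromosome 4) and from 5 Mb (chromosome 10).

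Neighbouring listed peaks stood farther apart in the arms. The median distance from one peak's end to the next peak's start was 9 kb in the arms (quartiles 3.4 and 25 kb) and 5 kb in the rest (2.4 and 10.6 kb). In 46.6% of 704 such intervals in the arms no number was missing, against 63.1% of 3315 in the rest, a difference of -16.5 points (-20.5 to -12.4). In the 5 Mb next to the far limits the median distance was also 9 kb, and 51.1% of intervals had no missing number, a difference of -4.46 points (-10.1 to 1.19) that did not hold up. The 187 runs of peaks with consecutive numbers in the chromosome 4 arm had a mean of 1.83 peaks, against 2.73 in 802 runs of its rest, and the 191 runs in the chromosome 10 arm had 1.90, against 2.66 in 424 runs of its rest. Run length follows from the share of intervals without a missing number, and both are tied to the listed share given above. Distances are likewise tied to the density of listed peaks, so none of these is a separate result. The longest run also depends on the size of the region. The longest had 7 peaks in the chromosome 4 arm and 9 in the chromosome 10 arm, against 19 in the rest of chromosome 4 and 21 in the rest of chromosome 10. One run of 9 lay on chromosome 10 from 781400 to 826399 and took in 7 loci, and another of 9 lay from 1658800 to 1698999 and took in 6.

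**Figure D4:**
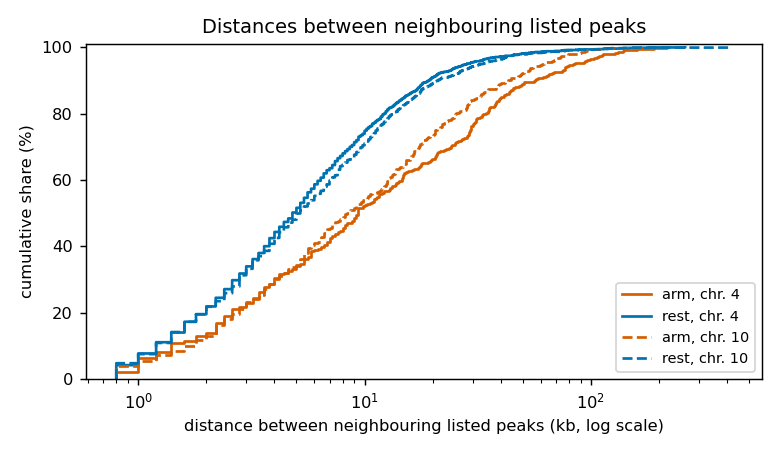
Cumulative share (%) of the distances between neighbouring listed peaks (kb, log scale) in the short arms (orange) and the rest (blue) of chromosome 4 (solid) and chromosome 10 (dashed). The arm curves lie to the right of the curves of the rest, with medians of 9.4 and 8.5 kb in the arms against 4.8 and 5.2 kb in the rest.

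Long stretches without a listed peak were frequent in the arms and were not empty of peak numbers. Stretches of 50 kb or more numbered 66 in the arms and made up 37.6% of their length, against 66 and 16.5% in the rest; in the 5 Mb next to the far limits they made up 35.2%. In the arms these stretches held 654 missing numbers, 117 per Mb, and each had at least 3. In the rest they held 723, 116 per Mb, with 96.6 per Mb in the 5 Mb next to the far limits and 140 beyond. Between the arms and the far limits such stretches held 104 per Mb, and no interval was computed for these densities. The longest in the arms was 217 kb on chromosome 4, from the end of one peak at 2511999 to the start of the next at 2729000, between LOC_Os04g05080 and LOC_Os04g05430, with 26 missing numbers. On chromosome 10 the longest was 170.8 kb, from 3169199 to 3340000, also with 26. The second longest on chromosome 4, 190.6 kb from 5905599 to 6096200, held 16. It was parted from the third, 159.2 kb long with 18 missing numbers, by a lone listed peak at LOC_Os04g11195 that ended at 6098399.

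Peaks in introns took a larger share in the arms than in the rest. Introns held 64 of the 706 arm peaks (9.07%, Wilson interval 7.16 to 11.4%) and 162 of 3317 in the rest (4.88%, 4.20 to 5.67%), a difference of 4.18 points (2.12 to 6.62). The difference was 3.55 points (0.910 to 7.02) on chromosome 4 and 4.51 (1.47 to 8.21) on chromosome 10. It shrank to 1.64 points (-1.56 to 4.68) against the 5 Mb next to the far limits, where the share was 7.43%, and was there -1.62 points on chromosome 4 and 4.40 on chromosome 10. Against 134 bins of the other 10 chromosomes whose listed counts lay in the range of the arm bins, where the share was 7.36%, it was 1.70 points (-0.300 to 4.12). Those bins, called here bins of like density, held 54.7 listed peaks per Mb, against 47.4 in the arms. Both of these comparisons were added after the data were seen. Neither interval leaves out 0, so a larger intron share was seen against the whole rest and not shown against other sparse stretches.

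Promoter peaks formed the bulk of the arm peaks and their share hardly differed: 543 of 706 (76.9%) in the arms and 2583 of 3317 (77.9%) in the rest, a difference of -0.959 points (-4.49 to 2.33). Exon peaks took 7.65% in the arms and 7.87% in the rest, a difference of -0.220 points (-2.21 to 2.14). Peaks at transcription ends were fewer in the arms, 45 (6.37%) against 311 (9.38%) in the rest, a difference of -3.0 points (-4.89 to -0.746). Against the 5 Mb next to the far limits it was -1.05 points (-4.07 to 1.77). On chromosome 4 the shares were 5.25% in the arm and 10.1% in the rest, a difference of -4.81 points. On chromosome 10 the shares were 7.44% in the arm and 8.06% in the rest, a difference of -0.622 points (-3.48 to 2.86).

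**Figure D5:**
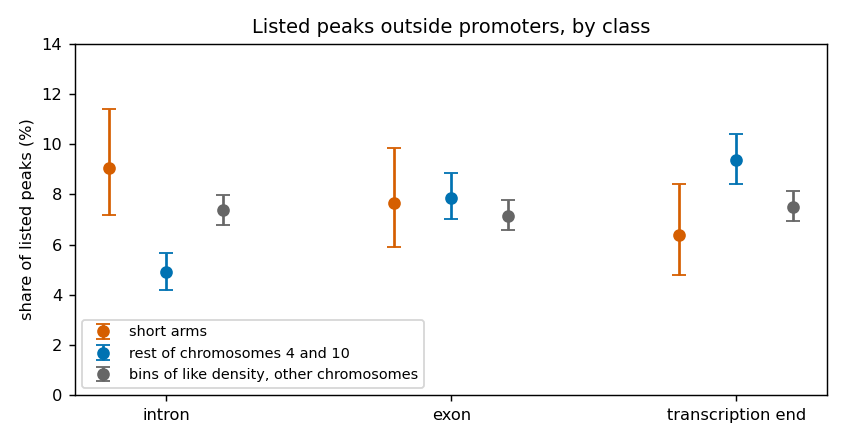
Share of listed peaks (%) in introns, in exons and at transcription ends. Orange marks the short arms and blue the rest of chromosomes 4 and 10. Grey marks 134 bins of the other 10 chromosomes whose listed counts lay in the range of the arm bins (bins of like density). Those bins held 54.7 listed peaks per Mb, against 47.4 in the arms. Bars are Wilson 95% intervals. The intron share is 9.07% in the arms, 4.88% in the rest and 7.36% in the bins of like density.

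The 64 intron peaks of the arms fell in 54 loci, at a median of 4446 bp downstream of the start, against 162 in 151 loci at a median of 3338 bp in the rest. That median was 4143 bp in the whole list outside the arms and 4331 bp in the bins of like density, both nearer to the arms. No interval was computed for these medians. The first intron held 17 of the 64 (26.6%) and 25 of the 162 in the rest (15.4%), a difference of 11.1 points (-0.107 to 24.0). The difference was 3.97 points (-6.01 to 16.3) against the bins of like density and 7.05 (-5.11 to 20.4) against the rest beyond the nearest 5 Mb. Against those 5 Mb alone, where the first intron held 1 of 39, it was 24.0 points (9.91 to 36.1), the only interval among these that leaves out 0. Exon peaks lay mostly in the last exon, 37 of 54 in the arms (68.5%) and 189 of 261 in the rest (72.4%). By chromosome the counts were 22 of 26 (84.6%) in the chromosome 4 arm against 72.1% in its rest, and 15 of 28 (53.6%) in the chromosome 10 arm against 73.0% in its rest. The difference was 12.5 points (-6.64 to 24.2) on chromosome 4 and -19.5 points (-39.0 to 0.188) on chromosome 10, with 0 inside both intervals.

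Some loci carried a series of peaks along the gene. LOC_Os04g06280, on the plus strand of chromosome 4, had 4: in intron 4 of 11 (3266400 to 3267799), intron 7 (3270400 to 3271799), intron 8 (3273400 to 3274199) and exon 11 of 12 (3276400 to 3277399), none at its promoter. LOC_Os10g04342, on the plus strand of chromosome 10, had a promoter peak from 2043600 to 2044599 and 3 more in its only intron, the last ending at 2054599. LOC_Os10g04860 had a promoter peak from 2358600 to 2359199 and 3 exon peaks, in exons 2, 6 and 10 of 10. The files do not pair these locus identifiers with gene names. Loci with 2 or more peaks made up 16.8% of the 589 arm loci and 19.0% of the 2738 in the rest, a difference of -2.22 points (-5.41 to 1.31).

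Peak widths were alike in the middle of their range. The median was 1400 bp in the arms (quartiles 800 and 2200 bp) and 1400 bp in the rest (800 and 2400 bp), and 32.2% of arm peaks were 2000 bp or wider against 35.0% in the rest, a difference of -2.88 points (-6.60 to 1.00). The widest arm peak, at the promoter of LOC_Os04g04254 on chromosome 4, spanned 17200 bp from 1997200 to 2014399, and its centre lay at -7851 bp from the start. The next, at the transcription end of LOC_Os04g13700, spanned 15800 bp from 7639600 to 7655399, and the third, in the last of 3 exons of LOC_Os04g04590, spanned 12800 bp from 2188200 to 2200999. The chromosome 10 arm had none of this size: its widest peak was 8400 bp, at the transcription end of LOC_Os10g01880 from 566200 to 574599.

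Promoter peaks in the arms were centred at a median of 270 bp downstream of the annotated start (quartiles -19.5 and 572 bp), against 196 bp in the rest (-145 and 526.5 bp). Of the 543 in the arms, 395 (72.7%, Wilson interval 68.8 to 76.3%) were centred downstream, against 67.8% (65.9 to 69.5%) of 2583 in the rest, a difference of 4.99 points (0.713 to 9.01). The difference had the same sign on each chromosome, at 5.17 points (-0.871 to 10.7) on chromosome 4 and 3.93 (-2.34 to 9.73) on chromosome 10, with 0 inside both intervals. Against the 5 Mb next to the far limits it was larger, 6.88 points (1.00 to 12.8). Against the whole list outside the arms it was 3.60 points, with an interval of -0.337 to 7.23, and against the bins of like density 2.89 points (-1.18 to 6.66).

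Genes of the expression tables in the arms had promoter peaks at a share not shown to differ from that elsewhere. The expression tables of the series list 1177 genes, most of them transcription factors, with positions and descriptions. Of these, 9 lay in the arms, 7 on chromosome 4 and 2 on chromosome 10, and 8 of the 9 (88.9%, Wilson interval 56.5 to 98.0%) had a promoter peak. The share was 71.8% over the whole table and 84 of 126 (66.7%) in the rest of the same chromosomes, a difference of 22.2 points whose interval of -11.1 to 34.8 includes 0.

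On chromosome 4, the gene similar to PCF1 (Os04g0194600, 6490902 to 6495594, minus strand) had a promoter peak from 6495000 to 6496799. PCF1 belongs to the TCP family, DNA-binding proteins that regulate growth and cell division. Genes with C2H2 zinc finger domains, a DNA-binding fold common in plant stress regulators, numbered 3. Of these Os04g0162500 had a peak from 4296200 to 4297399, which covers most of the gene (4296220 to 4297568), and Os04g0165200 one from 4426400 to 4427599, ending just inside its start. The third, Os04g0115500 (913931 to 917426), was the exception among the 9 and had no peak of any class. The CCCH zinc finger gene Os04g0105000, of a family that often binds RNA, had a peak of 600 bp from 321200 to 321799 at its start. Os04g0117600 (similar to H0613H07.1) had a promoter peak from 1046200 to 1047399 and an intron peak from 1048400 to 1049599, and Os04g0112200 (similar to OSIGBa0127D24.8) a promoter peak from 711000 to 711999.

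On chromosome 10, the HOX15-like gene (Os10g0103700, 284721 to 286945, minus strand) had 2 peaks classed as promoter. HOX15 is a homeodomain-leucine zipper protein, a plant class of transcription factors. One of its peaks, 600 bp wide, lay at the start (286400 to 286999) and the other, 400 bp wide, 1542 bp downstream of it (285200 to 285599). Os10g0158700, described as a conserved hypothetical protein, had the widest peak among these genes, 4800 bp from 3724400 to 3729199, centred at -1166 bp from its start. Apart from that peak, those at the table genes of the arms were 400 to 1800 bp wide.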

How the data were processed

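The deposited peak list gives each peak's start, end, class and distance to a transcription start, and no score. Positions are printed as the list has them, and the sources used here give no rice build, peak caller or pooling. The submitters' processing notes name Bowtie 0.12.2, HISAT2 2.0 and StringTie 1.3.0 without a role, and the mouse build mm8. The 6 deposited tables hold FPKM values, which were not analysed here, because an earlier analysis of these data found that the lengths behind them did not follow the genes named on the rows; this was not checked again. The tables gave gene positions and descriptions, and the 9 genes in the arms all matched RefSeq (ASM3414082v1), used for names. A table gene took the peaks of its locus identifier.

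Arms and limits follow the stated rule. The rest ends at the last listed peak of each chromosome. Peak numbers and locus numbers were counted from the first to the last listed value of a region, loci in steps of 10. Peak numbers of a 1 Mb bin were counted in the same way within the bin. Shares have Wilson intervals, differences Newcombe intervals and densities exact conditional Poisson intervals, all at 95% and without a p-value. The Newcombe and Poisson intervals were run on simulated independent counts. That run cannot show how the intervals do where peaks cluster along a chromosome. Widths fell on a grid of 200 bp, with 1 exception. Named peaks are the widest, those of loci with the most peaks, those beside the longest stretches, the first and last of an arm, and the table genes; the text gives the leading ones. The members, lists and limits were chosen with earlier results of these data known. Planned gene lists other than transcription factors, and promoter motifs, were not analysed here. The alternatives moved the limits, the width minimum or the comparison region. Scripts ran in Python 3.11.15 with pandas 2.3.3, scipy 1.17.1 for intervals, numpy 2.4.6, and matplotlib 3.10.9 for plots.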

Additional observations from a re-analysis of the deposited data

Results flagged for a closer look

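The 2 arms were compared with each other in 15 measures, each as the arm's difference from the rest of its own chromosome, with normal intervals not adjusted for their number; 5 intervals left out 0. The density ratio was lower on chromosome 4 than on chromosome 10 by a log2 difference of -0.48 (-0.72 to -0.24), at 0.464 on chromosome 4 and 0.647 on chromosome 10. The listed share of peak numbers differed from that of the rest by -23.2 points on chromosome 4 and -13.1 points on chromosome 10, and the effects themselves by -10.1 points (-14.9 to -5.32). The share of locus numbers with a peak differed in the same way (-9.98 points, -14.1 to -5.89). Density, listed share and locus share all count the same listed peaks, so they are not separate results. For peaks at transcription ends the difference between the chromosomes was -4.18 points, and its interval of -8.37 to -0.00225 nearly reached 0. For the share of exon peaks in the last exon the effects had opposite signs, 12.5 points on chromosome 4 and -19.5 points on chromosome 10, a difference of 32.0 points (7.06 to 56.9) that rests on 26 exon peaks in the chromosome 4 arm and 28 in the chromosome 10 arm. These differences depend on the comparison region. The 5 Mb next to the far limits make up 5 of 24.3 Mb of the rest on chromosome 4 and 5 of 13.5 Mb on chromosome 10. The listed share in those 5 Mb was 35.9% on chromosome 4 and 42.2% on chromosome 10. In the rest beyond them it was 56.8% on chromosome 4 and 54.4% on chromosome 10. Whether the unequal part that those 5 Mb make up accounts for the differences was not tested. Against those 5 Mb alone, a comparison added after the data were seen, 0 lay inside the interval for all 15 measures. The density ratio was then 0.890 on chromosome 4 and 0.934 on chromosome 10, a log2 difference of -0.07 (-0.40 to 0.26). The difference between the chromosomes was -1.01 points (-7.60 to 5.58) for the listed share, -1.99 points (-7.26 to 3.29) for locus numbers with a peak, -3.38 points (-9.33 to 2.57) for transcription ends and 26.6 points (-11.3 to 64.6) for the last exon.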

How the results depend on the processing

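Of 136 values recomputed under alternatives, 116 kept their call: the interval left out 0 (or 1, for ratios) on the same side, or held it both times, whatever the sign, and the covered length ratio moved by less than counting error. The choice of comparison region mattered most. Against the 5 Mb next to the far limits, added after the data were seen, the density ratio was 0.903 and the covered length ratio 0.902. The ratio of all peak numbers to that stretch was 1.05, on the other side of 1, but its interval of 0.981 to 1.13 includes 1. The transcription end difference from it was -1.05 points and the intron difference 1.64 points. The first intron difference was 24.0 points (interval 9.91 to 36.1), and the difference in intervals without a missing number -4.46 points. Against the rest beyond those 5 Mb the covered length ratio was 0.447. Against the whole list outside the arms it was 0.593, the transcription end difference -1.95 points (interval reaching 0.126) and the downstream difference 3.60 points. Against bins of like density the values were -1.13 points for transcription ends, 1.70 for introns and 2.89 for downstream centres. On chromosome 4 alone the covered length ratio was 0.457 and the downstream difference 5.17 points. On chromosome 10 alone the covered length ratio was 0.615, the ratio of missing numbers 1.11, the transcription end difference -0.622 points and the downstream difference 3.93 points. A minimum width could not be applied to numbers missing from the list, and the motif alternatives were not run. Shares above rest on 706 arm peaks, and a difference of a few points in a class is near the limit of what that number can show. No paired analysis was possible because the results come from 1 peak list and no test between samples.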
